A study of Mus musculus with 5 samples.

Results

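The cells described here are 57 brain T cells that scored above 0 both for Cd4 and for CD8, out of 692 sorted cells in 5 samples. Members were selected on measured values: the Cd4 score and the mean of the Cd8a and Cd8b1 scores both had to lie above 0, and such cells are called double-gated below. They are set against the cells above the CD8 gate only (CD8-gated, 23% of all cells), the cells above the CD4 gate only (CD4-gated, 21.1%), and both of those classes pooled (single-gated). The remaining 47.7% of cells lay above neither gate. All cells came from wildtype C57BL/6 mice, killed 14 days after photothrombosis, a stroke made by activating a circulating dye with light over the cortex. The 3 trained samples came from mice given running wheels from day 2, and the 2 untrained samples from mice without that training. CD45 and CD3 staining guided the sort of single cells from the ipsilateral hemisphere into 384-well plates for SORT-seq, a plate-based single-cell RNA method in which spike-in RNA is added to the wells. No label states the sex or age of the mice, or whether each sample is a separate animal. Every p-value therefore reflects the spread among these 5 samples alone, which may be technical. The values are signed scores per gene and cell, not counts or concentrations, so every contrast is a difference of scores and none is a fold change.

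CD4 and CD8 are the coreceptors of the T cell receptor: CD4 binds MHC class II and marks helper and regulatory T cells, and CD8, a pair of chains encoded by Cd8a and Cd8b1, binds MHC class I and marks cytotoxic T cells. Thymocytes carry both coreceptors for a time before they settle on one lineage, and most mature T cells keep a single coreceptor. The gates used here are RNA scores and not surface staining. Doublets were not called, so 1 cell and a well with RNA of several cells cannot be told apart.

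Double-gated cells were present in every sample, but unevenly. They numbered 21 of 144 cells in untrained sample 1 (14.6%, 95% Wilson interval 9.74 to 21.3) and 6 of 190 in untrained sample 2 (3.16%, 1.46 to 6.72). Trained sample 1 held 8 of 66 (12.1%, 6.27 to 22.1), trained sample 2 held 2 cells (1.61%, 0.443 to 5.69) and trained sample 3 held 20 of 168 (11.9%, 7.84 to 17.7). Untrained sample 2 and trained sample 2 thus held few of them, and the intervals cover counting error only. Over all samples they made up 8.24% of the cells and 15.7% of the 362 cells above at least 1 gate. The members sat in 51 differently named wells, 6 of which were named by more than 1 member, and 66.8% of all well names occur in more than 1 sample, since a name is a plate position.

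Untrained sample 2 stood apart in the scale of its scores. The median over rows of the SD between cells was 0.728 there and 0.371, 0.479, 0.515 and 0.430 in untrained sample 1 and trained samples 1, 2 and 3. In 1335 of the 2967 rows its highest score was one and the same value, 2.52, so its scores may have been scaled and capped separately from those of the other samples, and levels in it are not directly comparable with theirs. Trained sample 2 stood apart by holding 2 members, so a mean there rests on 2 cells. Some results that move when either sample is left out are given without it, but not all. The Cd3g difference from single-gated cells, for example, was -0.123 without untrained sample 2 and 0.102 with it.

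Membership was mostly a matter of small margins. Of the 57 members, 24 had a Cd4 score of at most 0.25, 25 had a CD8 mean of at most 0.25, and 39 were that close on at least 1 of the gates. A total of 18 lay above 0.25 for both, and 2 lay above 1 for both. The member nearest the Cd4 gate scored 0.0219 and the nearest to the CD8 gate 0.00539, while the highest cells left outside had a Cd4 score of -0.000132 among CD8-gated cells and a CD8 mean of -0.0344 among CD4-gated cells. Within 0.25 below the other gate lay 49 CD8-gated and 56 CD4-gated cells. These values describe the rule and were not tested.

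With the cells of all samples pooled, the members had a lower Cd4 median and a lower Cd8a median than the cells above 1 gate only. Cd4 had a median of 0.328 in members and 0.794 in CD4-gated cells. Cd8a had a median of 0.319 in members and 0.704 in CD8-gated cells, while Cd8b1 had 0.427 and 0.391. Both CD8 chains scored above 0 in 36 members, Cd8a alone in 10 and Cd8b1 alone in 11. On the wider, possibly capped scale of untrained sample 2 the members' median was 2.27 for Cd8a and 2.52 for Cd8b1, and 4 of the 6 members had at least 1 chain at the shared highest score. In the other samples the members' medians ran from 0.0648 to 0.353 for Cd8a and from -0.0547 to 0.436 for Cd8b1.

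**Figure D1:**
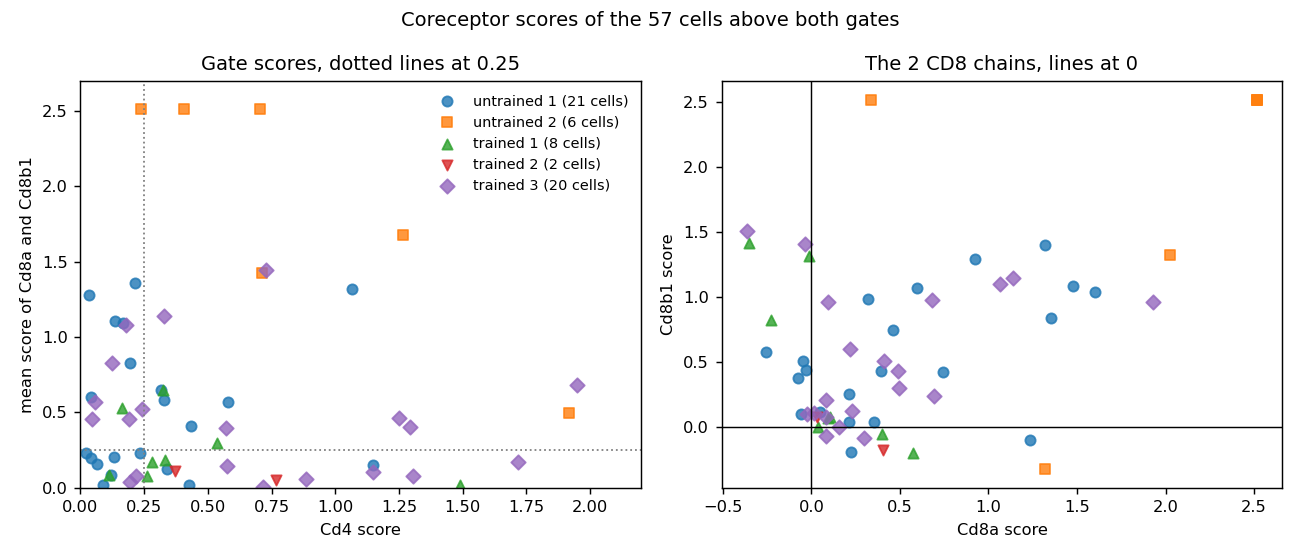
Each point is 1 of the 57 double-gated cells. The left panel plots the mean score of Cd8a and Cd8b1 against the Cd4 score, with dotted lines at 0.25, and the right panel plots Cd8b1 against Cd8a, with lines at 0. Only 18 cells lie above both dotted lines, and the highest CD8 scores belong to untrained sample 2, whose scores may be scaled and capped separately.

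The share of cells above the CD8 gate is given here for cells on either side of the Cd4 gate. Among cells above the Cd4 gate, 37.5% also lay above the CD8 gate in untrained sample 1, against 40.9% of the cells below the Cd4 gate. The shares were 17.6% and 20.5% in untrained sample 2, 33.3% and 40.5% in trained sample 1, and 5% and 40.5% in trained sample 2. In trained sample 3 they were 40.8% and 33.6%. These shares come from the gates that define the members and were not tested.

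The members scored as T cells. The mean of 8 T cell markers (Cd3e, Cd3d, Cd3g, Cd247, Cd2, Lck, Thy1 and Lat, which encode the CD3 complex and its signalling partners) lay above 0 in 51 of 57 members (89.5%), in 70.4% of CD8-gated and in 62.3% of CD4-gated cells. These shares pool the cells of all samples. In trained samples 1 and 2 the members averaged 0.131 and 0.126, below the 0.239 and 0.284 of CD8-gated cells. In trained sample 2 they also lay below CD4-gated cells (0.180). In the other samples they lay above both classes. Cd3e and Lck, which encode a CD3 chain and the kinase bound by the coreceptors, were both above 0 in 66.7% of members, 42.8% of CD8-gated and 40.4% of CD4-gated cells. Per sample, the members' share ran from 50% in untrained sample 2 and trained sample 2 to 80% in trained sample 3. The mean of 8 myeloid markers lay above 1 in 0 members, 4 CD8-gated and 8 CD4-gated cells, and above 0 in 15 members. These are counts from classes of different size, and members are the smallest class. Over the pooled cells the median of that mean was -0.196 (members), -0.260 (CD8-gated) and -0.134 (CD4-gated). The upper quartiles were 0.00272, -0.0802 and 0.149, so by both measures members lay above the CD8-gated and below the CD4-gated class.

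The members also had, on average over samples, more rows above 0 than the CD8-gated or CD4-gated cells. The mean percentage of the 2967 rows above 0 was 48, 29.9, 33.5, 43.8 and 46.2 in the members of untrained samples 1 and 2 and trained samples 1, 2 and 3. In the same order it was 36.3, 16.8, 32.6, 36.9 and 35.4 in CD8-gated cells, so the members had the higher value in 5 of 5 samples. In CD4-gated cells it was 41, 23.5, 37.5, 32.5 and 34.4, so the members were higher in 4 of 5, with trained sample 1 the exception. Under 20% of rows lay above 0 in 5 members, 47 CD8-gated and 36 CD4-gated cells. The share of rows above 0 thus differed between the classes in the same direction as most genes below. Values after regression on it are given beside the cytotoxic, T cell receptor and ribosomal lists.

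Spike-in RNA, added from outside the cell, overlapped between the classes. The members' mean score over the 41 spike-ins, from untrained sample 1 to trained sample 3, was 0.0390, -0.131, 0.105, -0.0156 and -0.0663, a mean of -0.0139, and that of the other classes was 0.0198 (CD8-gated), 0.00479 (CD4-gated) and 0.0876 (neither gate). Of the 41 spike-ins, 16 had a higher and 25 a lower score in members than in single-gated cells. Of all rows, 64.8% were higher and 35.2% lower, so most spike-ins went the other way from most rows. Their median difference was -0.0236, beside 0.0471 for all rows. None of the 41 had an unadjusted limma p under 0.05, against 9.78% of all rows. The lowest p belonged to ERCC-00059 (-0.175 ± 0.0870, SE, limma adjusted p = 0.519). It was lower in members in 5 of 5 samples, as were 3.51% of all rows. The 5 members with fewest rows above 0 had a median spike-in score of 0.432, and the other 52 one of -0.0514.

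**Figure D2:**
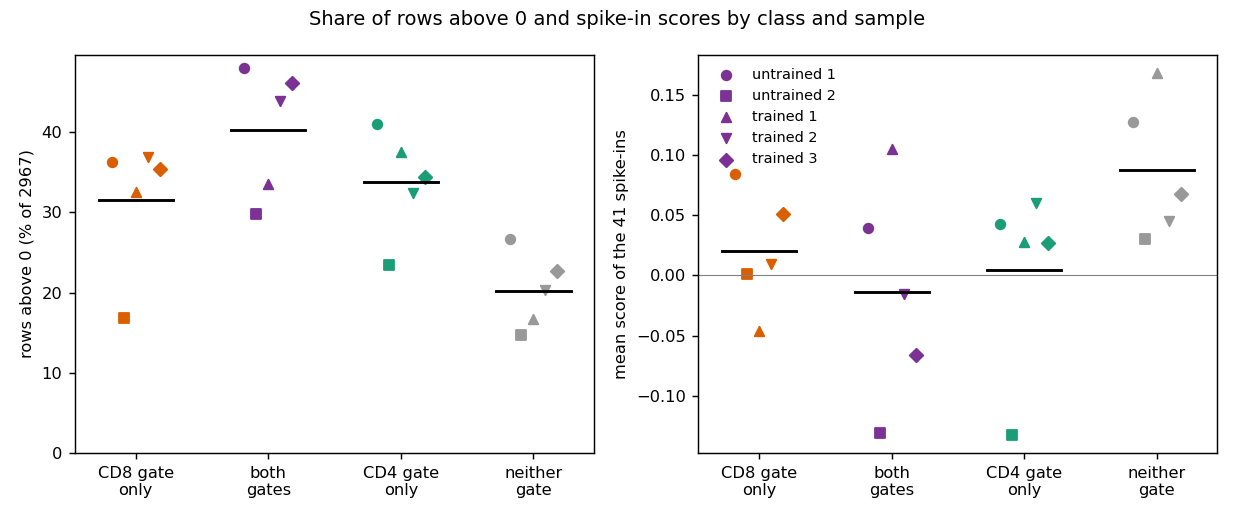
Points are the means over the cells of a class in each of the 5 samples and bars are the means of the samples. The left axis is the percentage of 2967 rows above 0, where members average 40.3 against 31.6 (CD8-gated), 33.7 (CD4-gated) and 20.3 (neither gate); the right axis is the mean spike-in score, where the classes overlap.

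Across all 2964 rows other than Cd4, Cd8a and Cd8b1, a limma fit on class means with sample as a block and Benjamini-Hochberg adjustment called 0 rows between double-gated and single-gated cells, a share of 0%. At an unadjusted p under 0.05 it gave 9.78% of rows, 8.47% higher and 1.32% lower in the members, and the median difference over all rows was 0.0471. Against CD8-gated cells alone 0 rows passed, with 11% at an unadjusted p under 0.05 (9.28% higher, 1.72% lower) and a median of 0.0653. Against CD4-gated cells alone 1 row passed (0.0337%), with 9.45% unadjusted (7.79% higher, 1.65% lower) and a median of 0.0307. That row was the ribosomal protein gene Rpsa. These 3 comparisons share the double-gated cells and are read side by side. When the samples were weighted by their cells, limma called 41 rows higher and 7 lower against single-gated cells. In the 2 samples with at least 10 members, an alternative chosen after the data were seen, it called 5.87%, 7.52% and 4.01% of rows against single-gated, CD8-gated and CD4-gated cells.

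On average over samples, the genes of the cytotoxic program scored higher in the members than in CD4-gated cells. Most of them scored lower than in CD8-gated cells. Of these genes 0 passed adjustment in either comparison, and the order depended on the sample and on the share of rows above 0. The list of 31 cytotoxic effectors and regulators had 15 measured members. All 15 had a higher mean than in CD4-gated cells (59.6% of all rows did), with a median difference of 0.139, and 5 of the 15 had an unadjusted p under 0.05 with the members higher (7.79% of all rows). Against CD8-gated cells 5 of the 15 were higher (68.6% of all rows), with a median of -0.0582. By sample that median was 0.0762 and 0.280 in untrained samples 1 and 2. It was -0.165, -0.236 and -0.0652 in trained samples 1, 2 and 3. The list's mean score was 0.145, 0.320, 0.0839, 0.0803 and 0.152 in the members of the 5 samples, against sample averages of 0.187 for CD8-gated and -0.0405 for CD4-gated cells. After regression on the share of rows above 0, 9 of the 15 genes were higher than in CD4-gated cells (median 0.0369) and 2 higher than in CD8-gated cells (median -0.190), so the members then lay nearer to CD4-gated cells. The difference between these distances was not tested. Without trained sample 2 the median against CD4-gated cells was 0.212, with 14 higher, and in trained sample 1 alone it was -0.000759. The shares of all rows given above come from all 5 samples without regression. They are no background for the counts in these alternatives.

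Nkg7, a granule membrane protein of cytotoxic lymphocytes, had the smallest p of the list. Its mean score in members was 0.431, 1.36, 0.706, 0.384 and 0.460, in the same order of samples. In CD4-gated cells it ran from -0.112 to 0.0471, below the lowest member value. The difference was 0.696 ± 0.146 (SE, 5 samples; limma adjusted p = 0.115), and it ranged from 0.498 to 0.873 over the 9 alternatives. Against CD8-gated cells, with scores of 0.272 to 0.653, the difference was 0.173 ± 0.134 and 3 of 5 samples were higher. Nkg7 scored above 0 in 77.2% of members, 65.4% of CD8-gated and 38.4% of CD4-gated cells.

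Other cytotoxic genes lay between the classes or split from them. Ctsw, a cathepsin of killer cells, was higher than in CD4-gated cells in 5 of 5 samples (difference 0.352 ± 0.129) and differed from CD8-gated cells by -0.0428 ± 0.118. Ccl5, a chemokine secreted by effector T cells, had scores of 0.323, 0.430, 0.870, -0.0830 and 0.493 in the members, with only trained sample 2 below 0. Its difference was 0.416 ± 0.141 from CD4-gated and -0.243 ± 0.154 from CD8-gated cells, with the members higher in 4 and in 2 of the 5 samples. Ly6c2, a surface protein of memory CD8 cells, was 0.448 ± 0.144 above CD4-gated cells, in 5 of 5 samples, and 0.0388 ± 0.146 above CD8-gated cells. Xcl1, a chemokine for cross-presenting dendritic cells, was 0.229 ± 0.0974 above CD4-gated cells, also in 5 of 5 samples, and had a mean difference of -0.111 ± 0.102 from CD8-gated cells. The limma adjusted p for these 4 genes against CD4-gated cells ran from 0.361 to 0.469.

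Eomes and Runx3 encode transcription factors of the cytotoxic lineage. Eomes scored -0.0220, -0.236, -0.101, -0.0449 and 0.0522 in members and 0.159, 0.209, 0.305, 0.0955 and 0.0574 in CD8-gated cells, lower in 5 of 5 samples (-0.236 ± 0.10, limma adjusted p = 0.433; 3.54% of all rows were lower in 5 of 5). Its difference from CD4-gated cells was 0.00144 ± 0.0921. Runx3, which silences Cd4 in CD8 cells, was higher in members in 4 of 5 samples against both classes, by 0.172 ± 0.120 and 0.127 ± 0.103, and was lower in trained sample 2. Lamp1, a lysosomal membrane protein exposed during granule release, was higher than in CD8-gated cells in 5 of 5 samples (0.290 ± 0.123) and 0.0628 ± 0.120 above CD4-gated cells.

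Genes of helper and regulatory T cells were mostly lower in members than in CD4-gated cells, and near the background of all rows against CD8-gated cells. Of the 35 listed, 12 were measured; 3 were higher and 9 lower in members than in CD4-gated cells (40.4% of all rows were lower), with a median of -0.136. Against CD8-gated cells 9 of the 12 were higher (68.6% of all rows were), with a median of 0.0273, below the 0.0653 of all rows. The mean score of the list was 0.0225 in members, -0.0540 in the CD8-gated and 0.117 in the CD4-gated class. None of the 12 passed adjustment, and Zbtb7b, the factor that commits thymocytes to the CD4 lineage, was not analysed here.

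Maf, a transcription factor of helper, regulatory and follicular cells, stayed on the side of the CD8-gated cells. Its scores in members were -0.0477, -0.341, -0.0480, -0.403 and -0.151, and in CD4-gated cells 0.132, 0.484, 0.0368, 0.170 and 0.138, so the members were lower in 5 of 5 samples (3.64% of all rows). The difference was -0.390 ± 0.119 (limma adjusted p = 0.350), and from CD8-gated cells it was -0.0176 ± 0.0924. Icos, a costimulatory receptor, was split among samples, at 0.0234 and 0.170 in untrained sample 1 and trained sample 3, which hold most members, and -0.329 to -0.352 in the other 3. Its difference was -0.269 ± 0.120 from CD4-gated and 0.00589 ± 0.110 from CD8-gated cells. In the 2 samples with at least 10 members these were 0.0437 and 0.275, so the direction against CD4-gated cells turned. The latter had a limma adjusted p of 0.00886 there. That alternative rests on 2 samples and was chosen after the data were seen. It called 7.52% of all rows against CD8-gated cells, where the fit on 5 samples called 0%.

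Cd44, an adhesion receptor that rises on activated and memory T cells, was on the side of the CD4-gated cells. The members scored 0.0387, 0.565, 0.0936, 0.0438 and 0.0763, all above the CD8-gated cells, which ran from -0.161 to -0.0663. The difference was 0.271 ± 0.109 from CD8-gated cells (limma adjusted p = 0.423; 0.161 without untrained sample 2) and 0.00503 ± 0.0987 from CD4-gated cells. Gata3, a factor of type 2 helper cells, Nrp1, a surface protein of thymus-derived regulatory cells, and Cxcr6, a receptor of tissue-resident T cells, had differences from CD4-gated cells of -0.138 ± 0.129, -0.163 ± 0.156 and 0.139 ± 0.150, each close to its SE in size. Cells with both a cytotoxic and a helper gene above 0 occurred in every class: Nkg7 and Maf were both above 0 in 15.8% of double-gated, 8.81% of CD8-gated and 17.1% of CD4-gated cells, and Nkg7 and Icos in 17.5%, 10.1% and 12.3%. These shares pool the cells of all samples. For Nkg7 and Icos the members' share was 23.8% in untrained sample 1, 25% in trained sample 3 and 0% in the others. By sample it ran from 5.88% to 17.6% in CD8-gated and from 7.14% to 18.4% in CD4-gated cells.

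**Figure D3:**
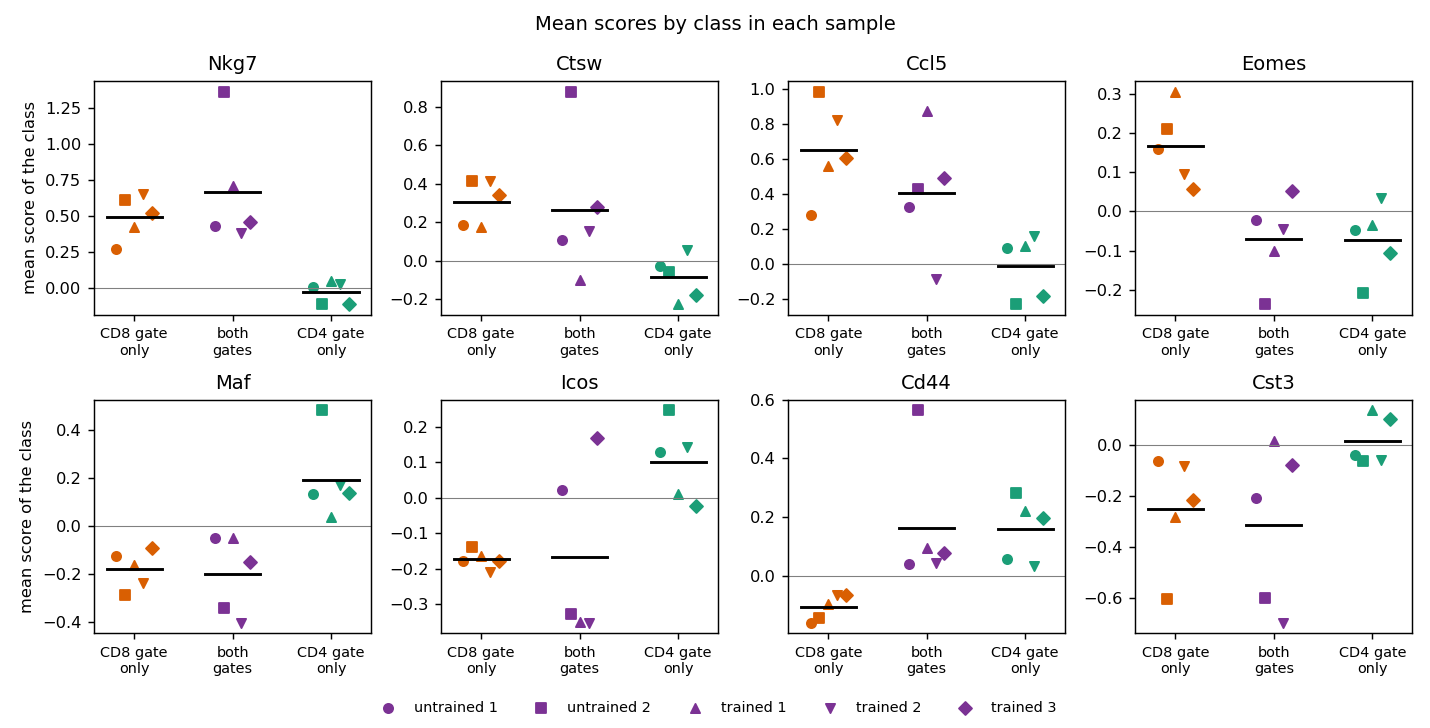
Mean scores of 8 genes (vertical axes) in CD8-gated, double-gated and CD4-gated cells; points are the 5 samples and bars their means. Members lie with the CD8-gated cells for Nkg7 and Maf, with the CD4-gated cells for Cd44 and Eomes, and between them for Ccl5.

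Myeloid markers were mostly lower in members than in CD4-gated cells. Of 40 listed genes 10 were measured, and 9 of these were lower in members than in CD4-gated cells (40.4% of all rows), with a median difference of -0.173. Of the 10, 6 were higher than in CD8-gated cells (68.6% of all rows were), with a median of 0.0521 beside 0.0653 for all rows. The list's mean was -0.0380, -0.463, -0.129, -0.0347 and -0.0853 in the members, with the lowest value in untrained sample 2, where CD8-gated cells had -0.436 and CD4-gated cells -0.0316. None of the 10 passed adjustment, and at a gate of 0.25 the median against CD4-gated cells was -0.061, with 4 of 10 higher. The shares of all rows given above belong to the gate at 0.

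Cst3, which encodes the protease inhibitor cystatin C, abundant in microglia, was lower in members than in CD4-gated cells in 5 of 5 samples (-0.328 ± 0.108, limma adjusted p = 0.363), but the difference was 0.134 at a gate of 0.25. The complement gene C1qb was also lower in 5 of 5 samples (-0.254 ± 0.101), and the lysosomal protease gene Ctsb in 4 of 5 (-0.316 ± 0.116; 0.133 at a gate of 0.25). Ctss, the cathepsin that processes class II antigens, differed by -0.0152 ± 0.162 and had its highest member score, 0.613, in trained sample 2, which holds 2 members. Tyrobp, Ctsd and Apoe had scores in members of -0.286, -0.192 and -0.307, averaged over samples, and differences from CD4-gated cells of -0.218 ± 0.107, -0.178 ± 0.101 and -0.168 ± 0.102. Among other cell types, the 10 B cell and plasma cell markers and the 10 endothelial and mural markers listed have no row in the table analysed here. Of 16 neural and glial markers 2 were measured, and both scored higher in members than in either other gated class. The list means were 0.340 (members), 0.132 (CD8-gated) and 0.0600 (CD4-gated). Of the 2, 1 gene, Mbp, had an unadjusted limma p under 0.05 in each comparison. Against the CD8-gated class 68.6% of all rows were higher, 9.28% with such a p. Against the CD4-gated class the shares were 59.6% and 7.79%. A list of 2 genes is too short to be set against these shares. Mbp, which encodes a myelin protein and whose locus also yields transcripts in lymphocytes, scored 0.238, 0.550, 0.199, 0.696 and 0.332 in members and from -0.0721 to 0.0606 in CD4-gated cells. Its differences were 0.273 ± 0.10 from CD8-gated and 0.405 ± 0.107 from CD4-gated cells, in 5 of 5 samples each (limma adjusted p = 0.404 and 0.240), and it lay above 0 in 68.4% of members, 45.9% of CD8-gated and 34.2% of CD4-gated cells. Cnp, an enzyme of myelin-forming cells, was higher than in CD4-gated cells in 4 of 5 samples (0.155 ± 0.123, limma adjusted p = 0.702). The part of RNA from other cells in the results was not tested.

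The T cell receptor complex and its signalling genes were higher in members in a share of genes not far above that of all rows, by small amounts. Of 26 listed, 23 were measured, and 17 were higher than in single-gated cells (64.8% of all rows were higher), 19 higher than in CD8-gated (68.6%) and 17 higher than in CD4-gated cells (59.6%), with medians of 0.102, 0.130 and 0.0640. At an unadjusted p under 0.05 limma gave 3, 3 and 4 of the 23 genes, all higher in members (8.47%, 9.28% and 7.79% of all rows), and 0 passed adjustment. The median difference from single-gated cells by sample was 0.104, 0.260, -0.0223, -0.00782 and 0.218, so trained samples 1 and 2 showed no excess. After regression on the share of rows above 0 the median was -0.0126, with 10 of 23 higher, a count for which the shares of all rows above are no background.

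Ms4a4b, a membrane protein of T cells, had the smallest p of the list. It scored 0.427, 1.13, 0.537, 1.02 and 0.409 in members, above both other classes in 5 of 5 samples, by 0.353 ± 0.116 over CD8-gated and 0.494 ± 0.0998 over CD4-gated cells (limma adjusted p = 0.397 and 0.115). At a gate of 0.25 the difference from CD8-gated cells was -0.000277. The difference from CD4-gated cells ran from 0.147 to 0.728 over the 9 alternatives. Ms4a6b, of the same gene family, was higher by 0.495 ± 0.112 and 0.369 ± 0.123, also in 5 of 5 samples, with its highest member score, 1.12, in trained sample 2. Ptprcap, a protein that associates with the phosphatase CD45, was higher than CD8-gated cells in 3 of 5 samples (0.130 ± 0.120) and higher than CD4-gated cells in 5 of 5 (0.400 ± 0.143), with 0.855 over single-gated cells in untrained sample 2. Thy1, the pan-T surface protein, was higher than single-gated cells in 4 of 5 samples (0.355 ± 0.140), while Cd3e (0.150 ± 0.0967), Cd3d (0.0908 ± 0.0999), Cd3g (0.102 ± 0.165), Cd247 (0.0959 ± 0.101), Lck (0.146 ± 0.127) and Lat (0.191 ± 0.131) were higher in 3 or 4. Cd2, an adhesion receptor, had a difference of -0.131 ± 0.103.

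Ribosomal protein genes formed, of the lists described here, the one with the largest median difference from single-gated cells. Of the 71 measured, 70, 69 and 70 were higher than in single-gated, CD8-gated and CD4-gated cells, against 64.8%, 68.6% and 59.6% of all rows, with medians of 0.313, 0.269 and 0.383. They were higher in 5 of 5 samples for 39, 31 and 40 genes (7.76%, 9.31% and 7.25% of all rows). At an unadjusted limma p under 0.05, 57, 41 and 62 genes were higher (8.47%, 9.28% and 7.79% of all rows). The list's mean was 0.366, 0.937, 0.470, 0.367 and 0.497 in members, 0.174, 0.337, 0.242, 0.296 and 0.292 in CD8-gated cells and 0.105, 0.226, 0.316, 0.0893 and -0.0360 in CD4-gated cells. The members were thus the highest class in all 5 samples, by most in untrained sample 2, against CD8-gated and CD4-gated cells alike. Without that sample the medians were 0.232, 0.188 and 0.301, and without trained sample 2 they were 0.362, 0.332 and 0.416.

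Rpsa, which encodes a protein of the small subunit, was the 1 row that passed. It scored 0.822, 1.23, 0.936, 1.14 and 0.930 in members, 0.458, 0.670, 0.455, 0.631 and 0.562 in CD8-gated cells and 0.230, 0.444, 0.470, 0.344 and 0.140 in CD4-gated cells, so the members were above both classes in every sample and their lowest sample lay above the highest of either class. It rose over CD4-gated cells by 0.687 ± 0.0969 (limma adjusted p = 0.0390). The call was lost in 8 of the 9 alternatives, with limma adjusted p from 0.0762 to 0.983, and each of the 5 samples, when left out, ended it. At a gate of 0.25 the difference was 0.346. Over CD8-gated cells the difference was 0.458 ± 0.0904 (limma adjusted p = 0.397). Rpl17, Rpl12, Rpl32 and Rps24, of the large and small subunits, followed with differences from single-gated cells of 0.524 ± 0.103, 0.471 ± 0.0957, 0.507 ± 0.103 and 0.466 ± 0.0951, in 5 of 5 samples each and all with an adjusted p of 0.222. Rpl7l1, a relative of Rpl7, was the 1 row of the 71 with a lower score than in single-gated cells (-0.152), in 5 of 5 samples; it was chosen after its value was seen.

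The ribosomal difference moved with the share of rows above 0 and with the gate. After regression on that share the median was 0.0189 against CD8-gated cells, with 46 of 71 genes higher, and 0.215 against CD4-gated cells, with 69 higher. At a gate of 0.25, which leaves 18 members in 4 samples, the medians were 0.0344 and 0.19, with 50 and 67 genes higher. Among cells with a T cell marker mean above 0 the median against single-gated cells was 0.121, with 65 higher. The shares of all rows given earlier come from all cells at a gate of 0, without regression. They are no background for these counts.

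**Figure D4:**
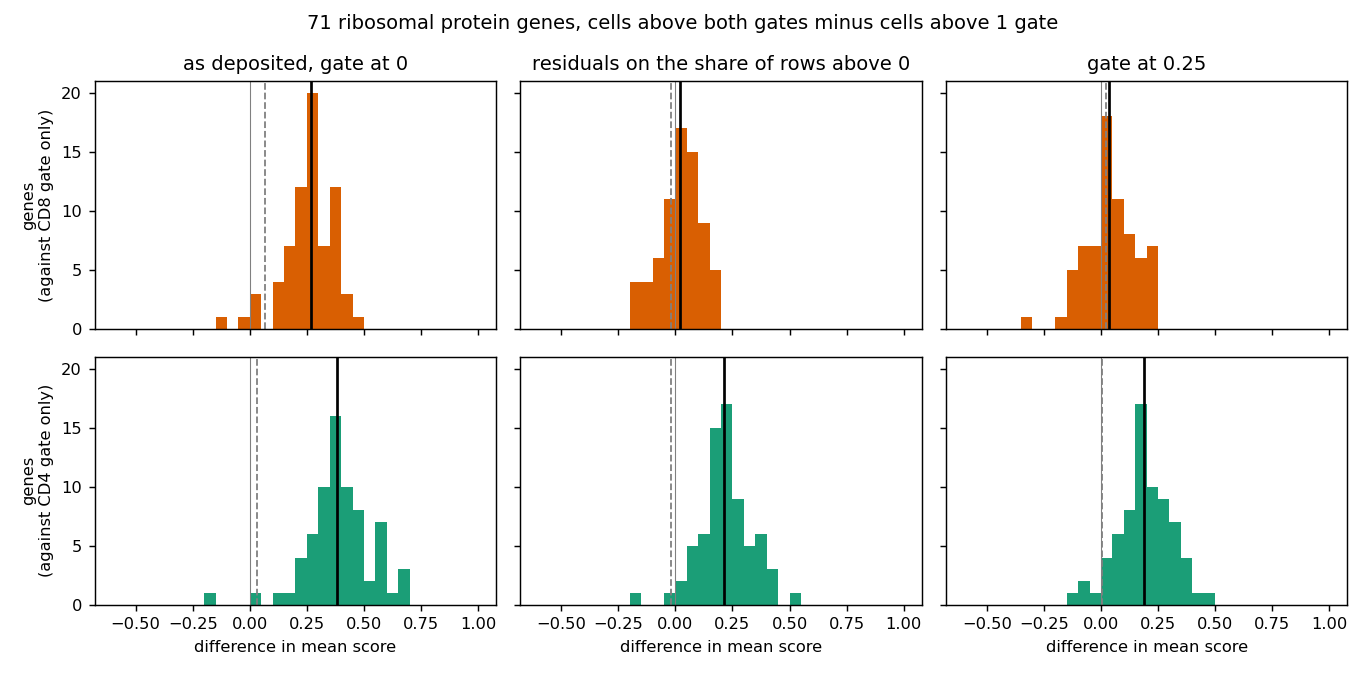
Histograms of the difference in mean score, double-gated minus CD8-gated (upper row) or CD4-gated cells (lower row), for 71 ribosomal protein genes; the vertical axis counts genes, the solid line is their median and the dashed line the median of all rows. The median against CD8-gated cells goes from 0.269 to 0.0189 and 0.0344 in the middle and right panels, while that against CD4-gated cells goes from 0.383 to 0.215 and 0.19.

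Among the rows with the smallest p of those lower in members were Kcnq1ot1 and Grk4, a kinase of G protein-coupled receptors. Kcnq1ot1, A630089N07Rik, Gm17821, D830005E20Rik and Grk4 were lower than in single-gated cells in 5 of 5 samples each (3.51% of all rows were), and 0 of the 5 passed. Kcnq1ot1, a nuclear antisense RNA of the imprinted Kcnq1 locus, scored -0.311, -0.960, -0.285, -0.421 and -0.514 in members and had averages over samples of 0.00973 (CD8-gated) and -0.149 (CD4-gated). It lay above 0 in 8.77% of members, 29.6% of CD8-gated and 24% of CD4-gated cells. Its difference from single-gated cells was -0.431 ± 0.101 (limma adjusted p = 0.243). A630089N07Rik differed by -0.443 ± 0.106, Gm17821 by -0.396 ± 0.0983, D830005E20Rik by -0.335 ± 0.0890 and Grk4 by -0.326 ± 0.0920. After regression on the share of rows above 0, the difference of Kcnq1ot1 was 0.014 and that of Grk4 0.0136. Of the 10 noncoding and low-complexity transcripts listed 4 were measured (Kcnq1ot1, A630089N07Rik, Malat1 and Neat1). Of the 4, 1 was higher than in single-gated cells, 2 than in CD8-gated and 0 than in CD4-gated cells. The shares of all rows were 64.8%, 68.6% and 59.6%, and the medians of the list -0.249, -0.232 and -0.267. Malat1, a nuclear noncoding RNA, was higher than in single-gated cells in 3 of 5 samples and differed from CD8-gated cells by 0.0393 ± 0.154.

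Most interferon-stimulated genes scored higher in members than in CD8-gated cells, while the share higher than in CD4-gated cells was near that of all rows. Of 47 measured genes, 42 were higher than in CD8-gated cells (68.6% of all rows were) with a median of 0.164, and 29 were higher than in CD4-gated cells (59.6%) with a median of 0.0556. At an unadjusted p under 0.05, 14 were higher and 1 lower against CD8-gated cells (9.28% and 1.72% of all rows), and 4 and 1 against CD4-gated cells (7.79% and 1.65%). The list's mean was 0.0996, 0.109, 0.0972, 0.361 and 0.155 in the members and between -0.0352 and 0.0269 in CD8-gated cells. The highest member value came from trained sample 2, and without it the medians were 0.0891 and 0.000735. Without untrained sample 2 they were 0.196 and 0.109. At a gate of 0.25 they were 0.0510 and -0.0643.

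Ifi47, an interferon-inducible GTPase gene, scored 0.382, 1.02, 0.578, 0.444 and 0.242 in members, above both classes in 5 of 5 samples, by 0.469 ± 0.117 over CD8-gated and 0.391 ± 0.0969 over CD4-gated cells (limma adjusted p = 0.397 and 0.215). Slfn1, a Schlafen family gene tied to T cell quiescence, and Ifi27l2a were higher than in CD8-gated cells in 5 of 5 samples, by 0.449 ± 0.107 and 0.444 ± 0.10, and exceeded CD4-gated cells by 0.183 ± 0.105 and 0.167 ± 0.111. Psmb8, a subunit of the immunoproteasome, was 0.429 ± 0.124 and 0.399 ± 0.132 higher, in 5 of 5 samples each.

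**Figure D5:**
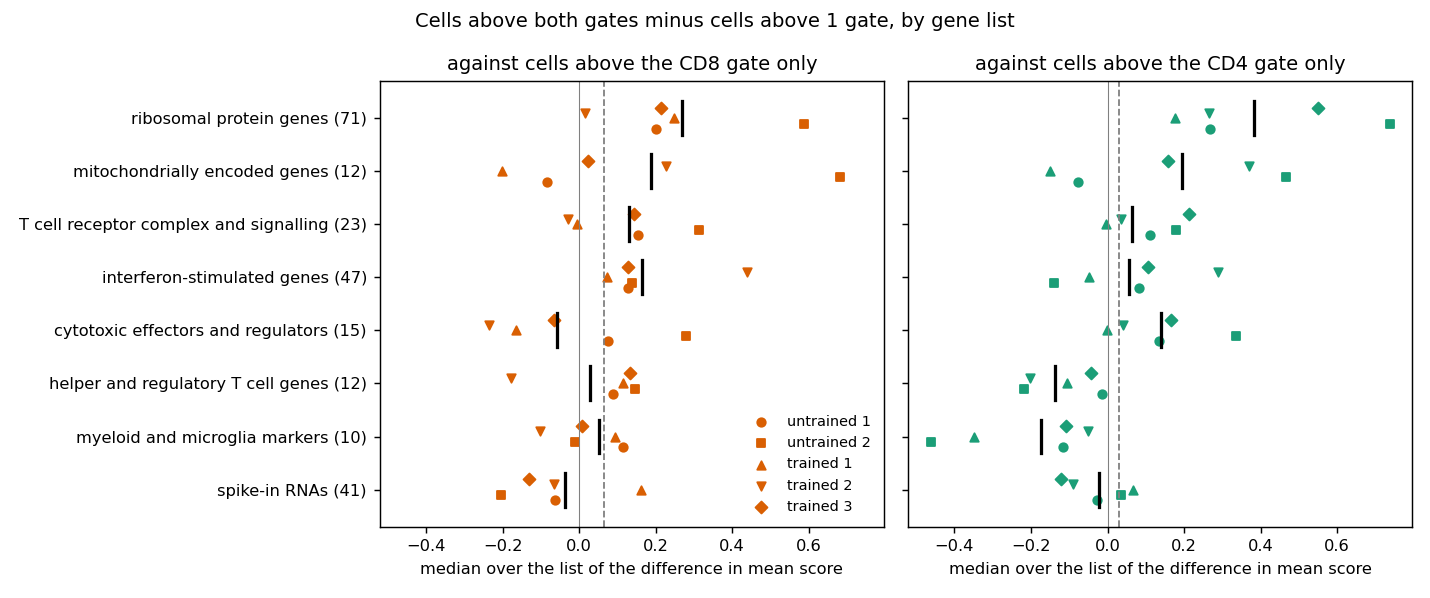
Horizontal axes give the median over each gene list (number of measured genes in brackets) of the difference in mean score, double-gated minus CD8-gated (left) or CD4-gated cells (right); points are the 5 samples, black bars the median of the fitted differences and dashed lines the median of all rows. Ribosomal genes lie above 0 in every sample in both panels. The fitted cytotoxic median differs in sign between the panels, but by sample it does so only in trained samples 2 and 3. Untrained sample 2 and trained sample 2 are often at the ends.

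The remaining lists differed in sign between samples. The 12 measured mitochondrially encoded genes had a median difference from single-gated cells of 0.192, but it was -0.0919 and -0.195 in untrained sample 1 and trained sample 1 and 0.593 in untrained sample 2. Of 25 cell cycle genes 8 were measured, with a median of 0.0664; Tuba1b, a tubulin gene, was 0.334 ± 0.109 higher and Tyms, the thymidylate synthase needed for DNA replication, had a difference of -0.204 ± 0.0908 and was lower in 5 of 5 samples. For 22 stress genes, induced by heat shock or tissue dissociation, the median was 0.152 against CD8-gated and -0.0462 against CD4-gated cells. Of 16 genes of the thymic stage that carries both coreceptors, 2 were measured: Tox, at 0.0726 ± 0.143 and 0.121 ± 0.116 from the CD8-gated and the CD4-gated class, and the chromatin organiser gene Satb1, at -0.0382 ± 0.10 and 0.0739 ± 0.0938. The other genes of that stage were not analysed here. Of the 15 innate-like and NK T cell genes 4 were measured, of which Cd7 was higher than in CD4-gated cells in 5 of 5 samples (0.273 ± 0.128, limma adjusted p = 0.527).

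Training, the comparison the study was built on, was tested in the members with 3 trained and 2 untrained samples. The share of double-gated cells averaged 8.55% ± 6.01 (SD, n = 3) with training and 8.87% ± 8.08 (SD, n = 2) without it. The difference was -0.324 percentage points (two-sided exact permutation p = 1 over 10 splits, where the smallest possible p is 0.1). The groups overlapped, and the difference was 5.39 points without untrained sample 1, 3.14 without trained sample 2 and -6.04 without untrained sample 2.

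No gene passed between trained and untrained double-gated cells. The limma test called 0 of 2964 rows (0%), the smallest adjusted p was 0.964, and 3.91% of rows had an unadjusted p under 0.05, 0.607% higher and 3.31% lower in trained samples. The groups did not overlap for 5.5% of rows that were higher and 9.08% that were lower. The smallest p among higher rows belonged to Ssb, the gene of the La RNA-binding protein, with 0.618, 0.494 and 0.280 in trained and 0.0510 and -0.316 in untrained samples. Next came the interferon-stimulated genes Gbp4 and Bst2, with differences of 0.644 ± 0.243 and 0.650 ± 0.251 and their highest scores, 0.982 and 1.05, in trained sample 2. Among lower rows Atp5k, a subunit of ATP synthase, scored -0.0759, -0.441 and -0.146 in trained and 0.181 and 0.964 in untrained samples (-0.794 ± 0.238). Coa5, Stk17b, S100a6 and Sfrs18 followed, each with its highest score in untrained sample 2. Without untrained sample 1, which leaves the lone untrained sample 2 on the assumption that it varies like the trained ones, limma called 33 rows, all lower in trained samples, and 0 in the other 7 alternatives.

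Cytotoxic, helper and ribosomal lists in the members showed no call for training either. The median trained minus untrained difference was -0.220 over the 15 cytotoxic genes, -0.0198 over the 12 helper genes, -0.221 over the 71 ribosomal genes and 0.136 over the 47 interferon-stimulated genes, beside -0.0348 over all rows, of which 43.3% were higher in trained samples. Without untrained sample 2 the ribosomal median was 0.0866, and at a gate of 0.25 that of the interferon-stimulated genes was -0.132. The ribosomal score was 0.366 and 0.937 in untrained and 0.470, 0.367 and 0.497 in trained samples, so the groups overlapped, with untrained sample 2 the highest.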

How the data were processed

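Single CD3+ cells from 5 plates (3 trained, 2 untrained) were measured by SORT-seq. The authors' processing with Cell Ranger is named in the submitters' processing notes without a version; for genome build, normalisation and integration the sources used here give nothing. The deposited table holds signed scores for 2967 rows (2926 genes, 41 spike-ins) in 692 cells, from -2.12 to 3.74, with 72.7% of values below 0 and no whole numbers, so the values may be scaled or integrated, no count model was run and depth is unknown. A second table of 384 columns repeats the earlier columns of the main table to within 5e-10 and was not used. A cell's sample came from its name's suffix, as the labels explain.

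Cells were classed by the gates at 0. Scores were averaged per class and sample, since cells are not replicates, and 2964 rows (Cd4, Cd8a and Cd8b1 left out) were tested with limma 3.58.1 in R 4.3.3, with sample as a block and Benjamini-Hochberg adjustment at 0.05, two-sided. Trained and untrained double-gated cells were compared by limma without a block, and shares of cells by an exact permutation test. The script was tested on simulated data. The members and gene lists were chosen with earlier results of these data known. Genes are named if they had the smallest p in a comparison and direction (5 each), were among the 3 smallest of a list, or belonged to a set kept for its known roles; rows the text may not name were passed over. Alternatives were a gate at 0.25, both CD8 chains above 0, scores divided by their SD, medians, equal or cell-weighted averages, cells with T cell marker scores above 0, cells without high myeloid scores, residuals on spike-in score or share of rows above 0, no block, and leaving out each sample. Only samples with at least 10 members is an alternative chosen after seeing the data. Doublets were not called. Python 3.11.15, numpy 2.4.6, pandas 2.3.3, scipy 1.17.1 and matplotlib 3.10.9 were used.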

Additional observations from a re-analysis of the deposited data

Results flagged for a closer look

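For 12 of 96 sets of 5 sample values, the highest or lowest sample stood farther from the others than Dixon's 95% limit for 5 samples allows. Chance flags about 1 in 20 independent sets. These sets are not independent: they share the same samples, some lists share genes, and some genes were named for their p in these data. The rate is therefore no measure for the 12. Untrained sample 2 was the sample that stood apart in 10 of the 12 and trained sample 2, with 2 members, in the other 2.

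For single genes the values are differences between double-gated and single-gated cells. In untrained sample 2 the difference was 0.511 for Cd44 (others 0.0327 to 0.0918), 0.855 for Ptprcap (-0.0116 to 0.237) and 1.48 for Cxcr3, a chemokine receptor of effector T cells (-0.134 to 0.251). It was also apart there for Cd7 at 0.687 (-0.0365 to 0.0531), for Coa5, a cytochrome oxidase assembly factor, at 1.55 (-0.151 to 0.151) and for the heat shock protein gene Hsp90aa1 at 0.925 (-0.0314 to 0.237). In trained sample 2 the difference was 0.915 for Ms4a6b (0.251 to 0.396).

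For lists the values are mean scores over the double-gated cells. Untrained sample 2 had 0.937 for ribosomal protein genes (others 0.366 to 0.497), 0.368 for cell cycle genes (0.0106 to 0.0808), -0.463 for the myeloid list (-0.129 to -0.0347) and -0.514 for the mean of the 8 myeloid markers (-0.174 to -0.0696). Trained sample 2 had 0.361 for interferon-stimulated genes (0.0972 to 0.155).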

How the results depend on the processing

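The percentage of the 2964 rows that limma called was 0 between double-gated and single-gated cells and stayed 0 in 15 of 17 alternatives. It was 1.62 when samples were weighted by their cells and 5.87 in the 2 samples with at least 10 members. Against CD8-gated cells it was 0 in the other alternatives and 7.52 in those 2 samples. Against CD4-gated cells, where it was 0.0337 (Rpsa), it was 0 at a gate of 0.25, 0 with scores divided by their SD, 0 after regression on the share of rows above 0, 0 to 0 when leaving out 1 sample and 4.01 in the 2 samples. Between trained and untrained members it was 0, and 0 to 1.11 when leaving out 1 sample, the 1.11 coming without untrained sample 1. The difference in share ran from -6.04 to 5.39 percentage points when leaving out 1 sample, was -0.851 at a gate of 0.25, and was 3.14 without trained sample 2. In the 2 samples with at least 10 members Cd3d was 0.219 higher than in CD8-gated cells (limma adjusted p = 0.0470), against -0.00673 over 5 samples; the cause of these shifts was not tested. Among the genes examined that passed in neither setting, the sign of the difference changed in at least 1 alternative for 44 genes against single-gated, 42 against CD8-gated and 36 against CD4-gated cells. Dividing by the SD moved the median of all rows against CD8-gated cells from 0.0653 to 0.125. Without the sample block 0% of rows were called against single-gated cells. No paired analysis was possible because the labels give trained and untrained samples no shared replicate number. Depth is unknown, so no limit of detection can be given.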
